A study of Mus musculus with 8 samples.

Results

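Mrc1, which encodes the mannose receptor, and 8 genes of C-type lectins of the CLEC family were followed in cultured mouse peritoneal macrophages given recombinant HRG, histidine-rich glycoprotein of plasma, or left without it. The 9 genes, of 19938 measured, were chosen by name, and each was read from the only array row annotated with its symbol alone. The cells were lavaged from the peritoneum of wild-type C57/Bl6 mice, pooled from 10 animals, and rested overnight in RPMI with serum before treatment. The 4 groups were HRG at 1 µg/ml for 6 h, basal (no HRG) for 6 h, HRG at 1 µg/ml for 24 h and basal for 24 h, with 2 samples each and 1 Affymetrix array per sample. As all cells came from 1 pool, the p-values measure the spread between the samples alone, and that spread may be technical.

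C-type lectin receptors bind sugars, lipids and other ligands on microbes and damaged cells through a shared fold. MRC1 is an endocytic receptor for mannose-bearing glycoproteins and a common marker of alternatively activated macrophages, and CLEC10A (MGL1) is an endocytic receptor for galactose-type glycans. Dectin-1 (Clec7a), Dectin-2 (Clec4n), MCL (Clec4d), Mincle (Clec4e) and MDL-1 (Clec5a) signal through the kinase SYK, Dectin-1 through its own tail and the others with the adaptors FcRγ or DAP12. MICL (Clec12a) and DCIR1 (Clec4a2) carry inhibitory tyrosine motifs that recruit phosphatases such as SHP-1.

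Values are log2 expression levels, on which a difference of 1 is a 2-fold change. A difference is HRG minus basal, or the later time minus the earlier, given with its standard error from 1 limma fit over the 8 arrays. The words rose and fell stand for an adjusted p under 0.05 over all 19938 genes. A level depends on the probes of its row, so a gene is compared between samples and not with another gene. Arrays of the same group correlated at r = 0.9963 to 0.9976 across genes, which are not independent. The mean log2 level of 9 measured macrophage markers lay between 12.39 and 12.81 on every array.

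With HRG against basal, Mrc1, Clec12a and Clec5a rose and Clec4n fell at 24 h, and Clec7a rose at 6 h. The calls of Clec5a, Clec4n and Clec7a were lost without some single arrays. Clec12a fell with time in basal samples and did not pass with time in HRG samples. The sequence upstream of the transcription start is shown for the 4 genes that rose, to set side by side the myeloid motifs near their starts. It comes from RefSeq (build GRCm38.p6), where 7 of the 9 members had a promoter. Each run is the 250 bases before the start, 5′ to 3′ along the gene, and for Clec7a the first start listed was used. Capitals mark matches on either strand to GAGGAA, the core recognised by the myeloid factor PU.1, to TGANTCA, an AP-1 site, and to TTC and GAA set 4 bases apart, a spacing bound by STAT6. The matches do not overlap.
Mrc1 (chr2:14229164-14229413, plus strand): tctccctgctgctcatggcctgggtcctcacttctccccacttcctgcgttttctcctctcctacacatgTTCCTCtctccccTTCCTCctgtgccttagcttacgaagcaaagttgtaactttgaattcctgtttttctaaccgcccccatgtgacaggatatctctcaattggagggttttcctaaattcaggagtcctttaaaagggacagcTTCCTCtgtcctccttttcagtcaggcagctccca
Clec12a (chr6:129349994-129350243, plus strand): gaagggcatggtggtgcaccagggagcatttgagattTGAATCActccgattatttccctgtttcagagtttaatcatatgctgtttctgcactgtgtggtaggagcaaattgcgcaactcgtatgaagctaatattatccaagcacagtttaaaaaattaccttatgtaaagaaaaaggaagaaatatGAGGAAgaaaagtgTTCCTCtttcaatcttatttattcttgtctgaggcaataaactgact
Clec5a (chr6:40585806-40586055, minus strand): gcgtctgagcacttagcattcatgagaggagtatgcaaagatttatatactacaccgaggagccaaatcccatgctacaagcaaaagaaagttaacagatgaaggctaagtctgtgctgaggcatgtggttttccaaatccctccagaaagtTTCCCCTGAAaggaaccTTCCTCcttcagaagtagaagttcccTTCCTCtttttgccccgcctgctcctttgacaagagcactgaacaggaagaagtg
Clec7a (chr6:129472780-129473029, minus strand): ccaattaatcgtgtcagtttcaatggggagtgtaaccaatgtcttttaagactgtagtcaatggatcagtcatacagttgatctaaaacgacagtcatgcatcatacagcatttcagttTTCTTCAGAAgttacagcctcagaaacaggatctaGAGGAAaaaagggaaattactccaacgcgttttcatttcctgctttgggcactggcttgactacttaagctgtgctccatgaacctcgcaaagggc

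GAGGAA was found in 6 of the 7 members' stretches, Clec4a2 being the exception, and in 23.3% of the 32851 stretches of the same length over all genes. Mrc1 had 3 matches, Clec12a, Clec5a and Clec4e had 2 each, and Clec7a and Clec4d had fewer. Clec4e and Clec4d were not called for HRG, so such matches were not particular to the genes that rose. The STAT6 spacing was found upstream of Clec7a and Clec5a (5.9% of all stretches), and the AP-1 site upstream of Clec12a (6.7% of all stretches). These are matches of letters, and binding was not measured here.

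**Figure D1:**
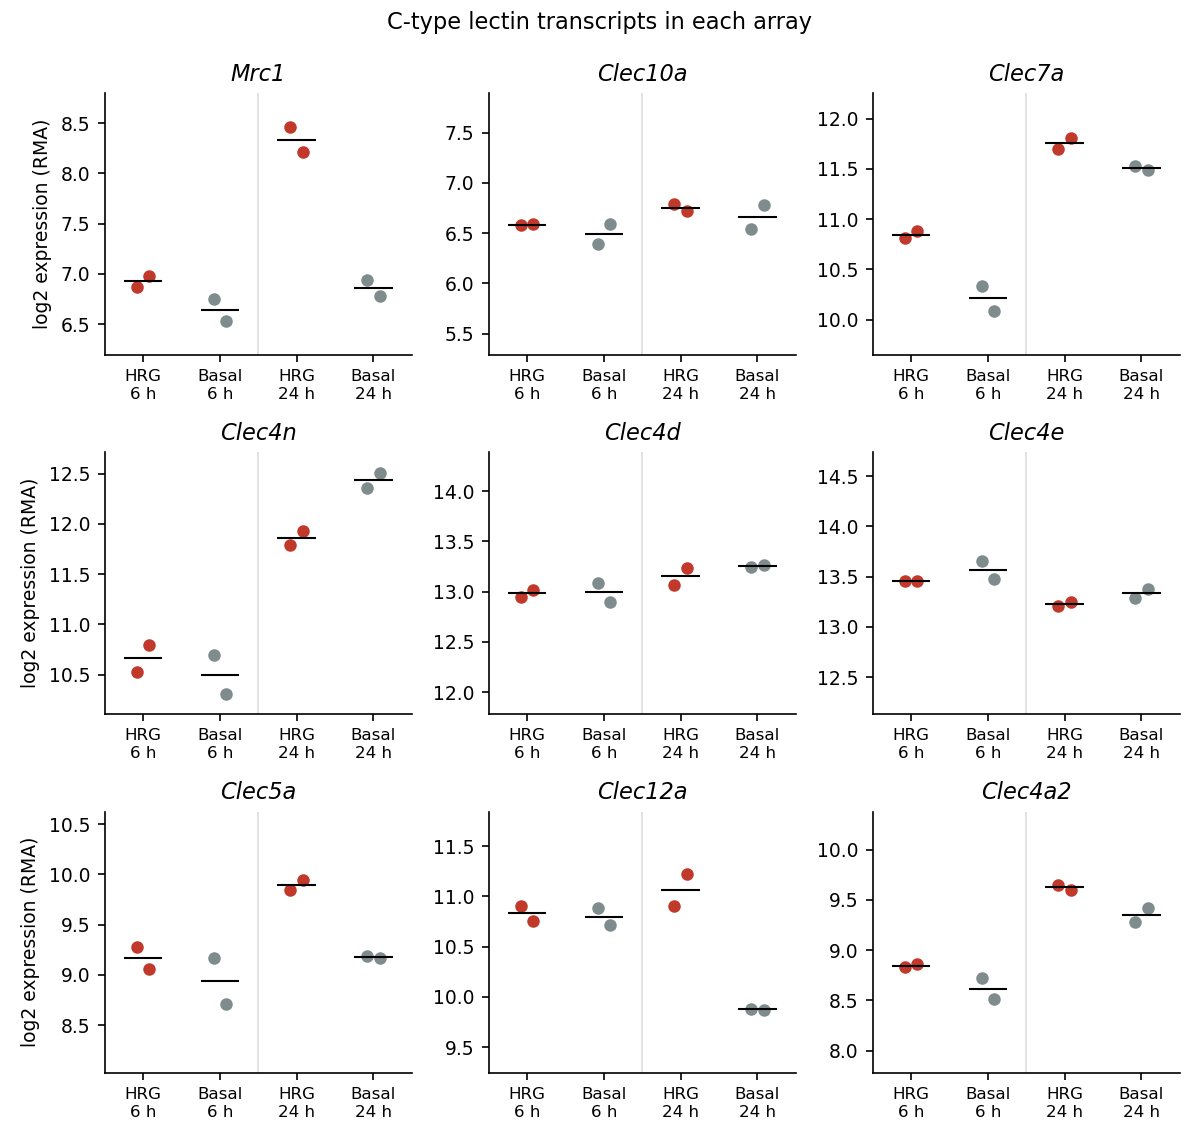
Log2 expression (RMA) of the 9 genes, a panel each, in HRG 6 h, basal 6 h, HRG 24 h and basal 24 h samples. Points are arrays (red HRG, grey basal), black lines are means of 2 arrays, and every panel spans the same number of log2 units. Mrc1 and Clec5a stand highest in both HRG 24 h arrays, Clec12a stands lowest in both basal 24 h arrays, and Clec4n stands highest in basal 24 h arrays.

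Of the endocytic receptors, Mrc1 rose with HRG at 24 h. It stood at 8.46 and 8.21 in HRG samples, against 6.94 and 6.78 in basal samples. The difference was 1.47 ± 0.12, or 2.78-fold (95% interval 2.32 to 3.32, adjusted p = 5.23e-05). The basal levels lay below the array medians of 7.18 to 7.29, and whether they stood above background was not analysed here, so the fold is one between values as measured. At 6 h it stood at 6.87 and 6.98 in HRG samples, against 6.75 and 6.53 in basal samples. These arrays did not overlap either, but the difference of 0.29 ± 0.12 did not pass (adjusted p = 0.383). The HRG effect was larger at 24 h than at 6 h by 1.19 ± 0.17 (adjusted p = 0.00648; 1.02% of all genes were called higher and 0.451% lower in this comparison). HRG 24 h samples stood above the rest, and the HRG 6 h and basal 24 h arrays overlapped. Between 6 h and 24 h of culture Mrc1 rose by 1.41 ± 0.12 in HRG samples (adjusted p = 4.33e-05), while the difference of 0.22 ± 0.12 in basal samples did not pass (adjusted p = 0.341).

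Clec10a, the other endocytic lectin, passed in none of the 5 comparisons. Its 8 arrays ran from 6.39 to 6.79. The HRG difference was 0.10 ± 0.11 at 24 h, with an interval of the ratio of 0.909 to 1.27, and 0.09 ± 0.11 at 6 h, with an interval of 0.905 to 1.26. All 8 arrays were below the array medians, and signal over background was not analysed here. Mgl2, which encodes a close relative and neighbours Clec10a on chromosome 11, differed by 0.15 ± 0.11 at 24 h and by 0.25 ± 0.11 at 6 h, and neither passed.

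Clec7a, the β-glucan receptor Dectin-1, rose with HRG at 6 h. It stood at 10.81 and 10.88 in HRG samples, against 10.33 and 10.09 in basal samples. The difference was 0.63 ± 0.10, or 1.55-fold (interval 1.32 to 1.82, adjusted p = 0.016). It was the 1 member of 9 that passed at 6 h, where 1.25% of all genes were called, 0.431% higher and 0.818% lower. The call was lost without Basal_6h replicate 2 (0.0587), HRG_6h replicate 1 (0.0831) or HRG_6h replicate 2 (0.184), where parentheses give the adjusted p, and the difference stayed between 0.51 and 0.75 over all single arrays left out. At 24 h Clec7a stood at 11.70 and 11.81 in HRG samples, against 11.53 and 11.49 in basal samples, and the difference of 0.25 ± 0.10 did not pass (adjusted p = 0.338). The effects at the 2 times differed by -0.39 ± 0.15, which did not pass (adjusted p = 0.323).

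Clec4n, the fungal mannan receptor Dectin-2, was the member that fell with HRG. At 24 h it stood at 11.79 and 11.93 in HRG samples, against 12.36 and 12.51 in basal samples. The difference was -0.58 ± 0.14, 1.49-fold lower (adjusted p = 0.0362), with no overlap of the arrays. The call was lost without Basal_24h replicate 1 (0.0616), Basal_24h replicate 2 (0.249), HRG_24h replicate 1 (0.32) or HRG_24h replicate 2 (0.104), with the difference between -0.65 and -0.50. At 6 h Clec4n stood at 10.53 and 10.79 in HRG samples, against 10.69 and 10.31 in basal samples, which overlapped. The effect at 24 h differed from that at 6 h by -0.74 ± 0.19, which did not pass (adjusted p = 0.0972).

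Both Clec4n and Clec7a rose with culture time, by more in size than their HRG differences, although the sizes were not tested against each other. Clec4n rose by 1.20 ± 0.14 between 6 h and 24 h in HRG samples (2.3-fold, adjusted p = 0.000241) and by 1.94 ± 0.14 in basal samples (3.82-fold, adjusted p = 9.62e-06). Clec7a rose by 0.91 ± 0.10 in HRG samples (1.88-fold, adjusted p = 0.000274) and by 1.30 ± 0.10 in basal samples (2.46-fold, adjusted p = 2.07e-05). For both genes all 24 h arrays stood above all 6 h arrays.

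Clec4d and Clec4e, whose products MCL and Mincle act as partners at the cell surface, passed in none of the 5 comparisons. Clec4d stood at 13.07 and 13.24 in HRG samples and 13.25 and 13.27 in basal samples at 24 h, and at 12.95 and 13.02 in HRG samples and 13.09 and 12.90 in basal samples at 6 h. Clec4e stood at 13.21 and 13.25 in HRG samples and 13.29 and 13.38 in basal samples at 24 h, and at 13.46 and 13.46 in HRG samples and 13.66 and 13.48 in basal samples at 6 h. The HRG difference at 24 h was -0.10 ± 0.10 for Clec4d and -0.10 ± 0.10 for Clec4e, with intervals of the ratio of 0.796 to 1.09 and 0.805 to 1.08. Their mean levels were at percentiles 99.5 and 99.8 of all genes, near the top of the range of the arrays, and whether differences are compressed there was not tested, so the intervals hold for the values as measured. Between 6 h and 24 h Clec4e differed by -0.23 ± 0.10 in HRG samples and by -0.23 ± 0.10 in basal samples. Clec4d differed by 0.16 ± 0.10 in HRG samples and by 0.26 ± 0.10 in basal samples. With the trend and robust settings of limma Clec4e passed in HRG (adjusted p = 0.035) and basal samples (0.027), and Clec4d in basal samples (0.029). In RefSeq, Clec4n, Clec4d and Clec4e follow each other on chromosome 6 among protein-coding genes, with Clec4b2 between Clec4a2 and Clec4n. Of these neighbours Clec4n alone was called for HRG, and the differences between the neighbours were not tested.

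Clec5a, the DAP12-coupled receptor MDL-1, rose with HRG at 24 h. It stood at 9.84 and 9.94 in HRG samples, against 9.19 and 9.17 in basal samples. The difference was 0.71 ± 0.14, or 1.64-fold (interval 1.33 to 2.02, adjusted p = 0.013). The call was lost without Basal_24h replicate 2 (0.0881), HRG_24h replicate 1 (0.0921) or HRG_24h replicate 2 (0.112), with the difference between 0.66 and 0.76. At 6 h Clec5a stood at 9.28 and 9.06 in HRG samples, against 9.17 and 8.71 in basal samples, which overlapped. With time it rose by 0.72 ± 0.14 in HRG samples (adjusted p = 0.00784), a call lost without HRG_6h replicate 2 (0.0814) or HRG_24h replicate 2 (0.0802), while basal samples differed by 0.24 ± 0.14 (adjusted p = 0.375). The change of its HRG effect between the times, 0.48 ± 0.20, did not pass (adjusted p = 0.375).

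Clec12a, the inhibitory receptor MICL, rose with HRG at 24 h. It stood at 10.90 and 11.22 in HRG samples, against 9.88 and 9.87 in basal samples. The difference was 1.19 ± 0.12, or 2.28-fold (interval 1.91 to 2.73, adjusted p = 0.000203). At 6 h it stood at 10.90 and 10.76 in HRG samples, against 10.88 and 10.72 in basal samples, which overlapped (0.03 ± 0.12, adjusted p = 0.97). The HRG effect was larger at 24 h by 1.16 ± 0.17 (adjusted p = 0.00687). Basal samples moved here: Clec12a fell by 0.93 between 6 h and 24 h (SE 0.12, 1.9-fold lower, adjusted p = 0.000445), while HRG samples differed by 0.23 ± 0.12, which did not pass (adjusted p = 0.326). Basal 24 h arrays stood below the 6 others.

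Clec4a2, the inhibitory receptor DCIR1, stood at 9.65 and 9.60 in HRG samples and 9.28 and 9.42 in basal samples at 24 h. At 6 h it stood at 8.83 and 8.86 in HRG samples and 8.72 and 8.51 in basal samples. HRG arrays stood above basal arrays at each time, but the differences of 0.27 ± 0.10 at 24 h (adjusted p = 0.254) and 0.23 ± 0.10 at 6 h (adjusted p = 0.446) did not pass. With time Clec4a2 rose by 0.78 ± 0.10 in HRG samples (adjusted p = 0.00073) and by 0.74 ± 0.10 in basal samples (adjusted p = 0.000872).

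**Figure D2:**
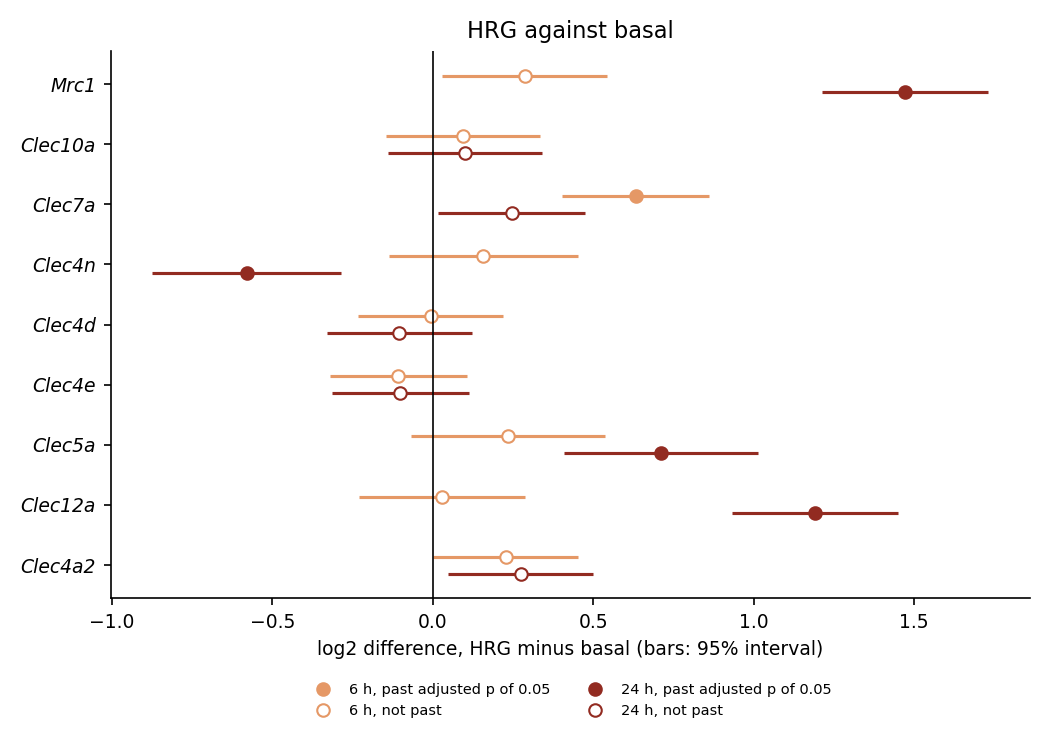
Log2 difference of HRG minus basal for the 9 genes at 6 h (orange, upper) and 24 h (dark red, lower). Points are limma estimates from 2 arrays per group, filled where past an adjusted p of 0.05, and bars are 95% intervals. At 24 h Mrc1 (1.47), Clec12a (1.19) and Clec5a (0.71) lie above 0 and Clec4n (-0.58) below it, and Clec7a (0.63) is the filled point at 6 h.

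Of the 9 genes, 3 rose and 1 fell with HRG at 24 h, where 3.48% of all genes were called, 2.43% higher and 1.05% lower. At 6 h 1 rose and 0 fell, with 3 of 9 at an unadjusted limma p under 0.05, beside 2194 of all 19938 genes. Their median difference was 0.25 at 24 h and 0.16 at 6 h, beside -0.02 and 0.02 over all genes. HRG and basal arrays did not overlap for 8 of the 9 at 24 h (40.2% of all genes) and for 4 at 6 h (38.3% of all genes). The HRG effect differed between the times for Mrc1 and Clec12a (1.47% of all genes called).

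With 24 h against 6 h of culture, 5 of the 9 rose and 0 fell in HRG samples, where 7.28% of all genes were called, 4.41% higher and 2.87% lower. In basal samples 3 rose and 1 fell, where 9.28% were called, 3.8% higher and 5.48% lower. The arrays of the times did not overlap for 9 of 9 in HRG samples (49.2% of all genes) and for 8 of 9 in basal samples (45.2% of all genes). The comparisons of HRG and of time share arrays.

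**Figure D3:**
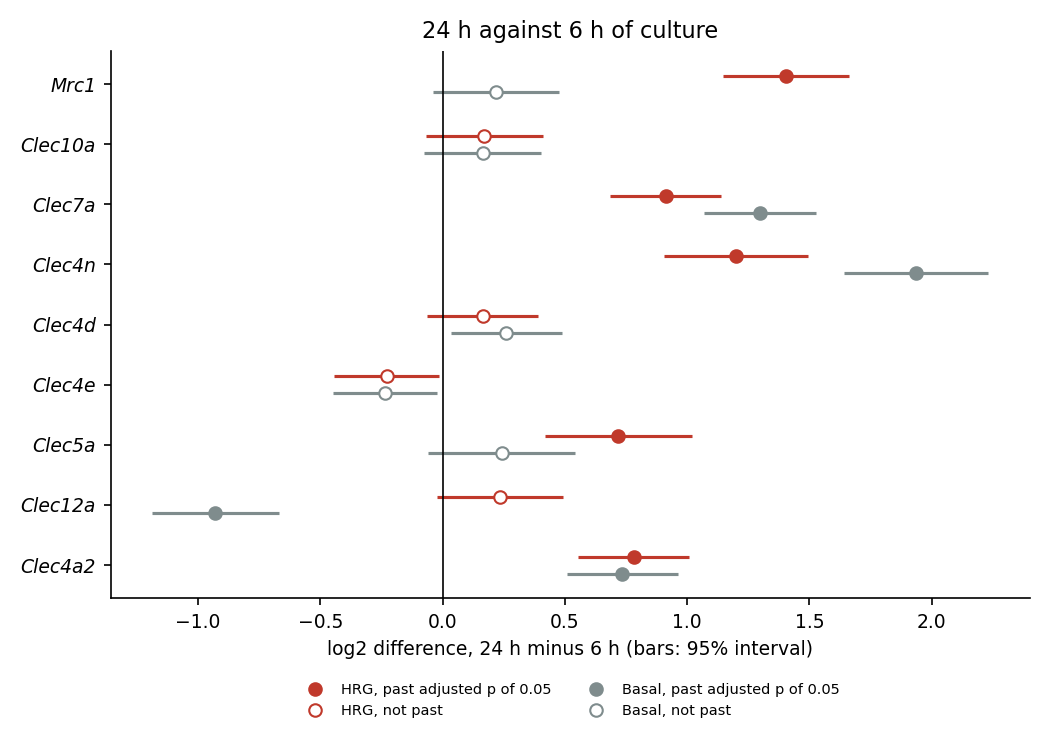
Log2 difference of 24 h minus 6 h of culture for the 9 genes in HRG samples (red, upper) and basal samples (grey, lower). Points are limma estimates from 2 arrays per group, filled where past an adjusted p of 0.05, and bars are 95% intervals. Clec7a, Clec4n and Clec4a2 are filled and above 0 in both, Mrc1 (1.41) and Clec5a (0.72) in HRG samples, and Clec12a (-0.93) is filled below 0 in basal samples.

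Some markers of other peritoneal cells also rose with HRG at 24 h, when Mrc1 and Clec12a rose. Of the B cell markers 2 of 5 rose with HRG, where 2.43% of all genes were called higher and 1.05% lower. Their mean log2 level was 9.10 to 9.36 in HRG samples and 8.53 to 8.85 in basal samples. At 6 h it was 9.12 to 9.14 in HRG samples and 9.41 to 9.44 in basal samples. Cd79a, of the B cell receptor, rose by 0.98 ± 0.16 with HRG at 24 h and fell by 0.84 in basal samples with time (SE 0.16). Ighm, of the same list, passed in neither (0.14 ± 0.10 and -0.19 ± 0.10). Of the mast cell markers 3 of 6 rose at 24 h, with a mean level of 9.42 to 9.74 in HRG samples and 8.90 to 9.19 in basal samples. At 6 h their mean was 9.35 to 9.48 in HRG samples and 9.45 to 9.59 in basal samples. In the list of small macrophages and monocytes 3 of 5 rose, Folr2 (1.13 ± 0.12), H2-Aa (1.10 ± 0.16) and H2-Ab1 (0.59 ± 0.10). Its mean level was 8.84 to 8.99 in HRG samples and 8.16 to 8.33 in basal samples. Its other markers, Irf4 (0.40 ± 0.12) and Ccr2 (0.12 ± 0.10), did not pass, and Ccr2 stood between 5.48 and 5.69 on the 8 arrays. Among macrophage markers 2 of 9 rose, Fcgr1 and Mertk, and among those of large peritoneal macrophages 2 of 5, Vsig4 and Timd4. None of these 5 lists had a marker that fell at 24 h. Of those that rose, Cd79a, Ms4a1, Mcpt4, H2-Aa, H2-Ab1, Fcgr1 and Timd4 fell in basal samples with time, as Clec12a did. Mertk rose in basal samples with time, and Cpa3, Ms4a2, Folr2 and Vsig4 did not pass. Mrc1 did not pass there either (0.22 ± 0.12). Of the markers of dendritic cells (6), T and NK cells (5), neutrophils (6) and mesothelial cells (5), 0 passed in limma, and 2, 1, 1 and 0 had an unadjusted p under 0.05. In bulk RNA, a change in the number of cells of a type and a change in RNA per cell cannot be told apart, and the part of these cells in the rise of Mrc1 and Clec12a was not tested.

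The genes closest to each called member over the 8 arrays were looked up among 668 genes with a mean above the median of all genes and a range of at least 1 log2 unit, a description in which all points share the 4 groups. Closest to Mrc1 were Sesn1 (r = 0.9905), Etv5 (r = 0.9894) and Rgs2 (r = 0.9865), all Pearson correlations. Rgs2, a regulator of G protein signalling, stood at 9.50 and 9.24 in HRG 24 h samples and between 7.94 and 8.33 on the 6 other arrays. Closest to Clec12a were Cd72 (r = 0.9613), Orm1 (r = 0.9257) and Mexis (r = 0.9206). Cd72, a lectin-like inhibitory receptor known from B cells, stood at 11.09 and 11.17 in HRG samples, against 9.97 and 10.07 in basal samples at 24 h, and was lowest there, as Clec12a was. Closest to Clec7a were Idh1 (r = 0.9931), a cytosolic dehydrogenase gene, Tlr7 (r = 0.9914), for a receptor of single-stranded RNA, and B3gnt3 (r = 0.9813). Closest to Clec4n were Fam102b (r = 0.9869), Ankrd37 (r = 0.9862) and Tef (r = 0.9846), and to Clec5a the cytokine gene Il18 (r = 0.9683), Sesn1 (r = 0.9678) and Hacd4 (r = 0.9571).

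A list of 23 measured genes held SYK and CARD9 signalling, the chain below the SYK-coupled lectins. It also held phosphatases such as SHP-1, which inhibitory lectins recruit. Of the 23 genes, 3 rose and 0 fell at 24 h, where 2.43% of all genes were called higher and 1.05% lower. At 6 h 0 rose and 0 fell, and 4 had an unadjusted limma p under 0.05, beside 2194 of all 19938 genes. The median was 0.11 at 24 h, beside -0.02 over all genes. The 3 were Nfatc2, a calcium-dependent transcription factor (0.82 ± 0.11), the SRC-family kinase gene Fgr (0.80 ± 0.11) and Ptpn6, for SHP-1 (0.37 ± 0.09, adjusted p = 0.0452). The call of Ptpn6 was lost without Basal_24h replicate 1 (0.205), Basal_24h replicate 2 (0.146), HRG_6h replicate 1 (0.0834), HRG_6h replicate 2 (0.0834), HRG_24h replicate 1 (0.267) or HRG_24h replicate 2 (0.186), and also with the replicate number as a block (0.0601), with median centring (0.066) and with only the 4 arrays compared (0.0609). The adaptor genes did not pass at 24 h: Tyrobp, for DAP12, differed by 0.30 ± 0.09 (adjusted p = 0.12) and Fcer1g, for FcRγ, by 0.15 ± 0.09 (adjusted p = 0.631). Syk stood at 11.53 and 11.46 in HRG samples and 11.42 and 11.60 in basal samples at 24 h, which overlapped.

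Among 55 other genes with a C-type lectin fold or name, 5 rose and 0 fell with HRG at 24 h. In that comparison 2.43% of all genes were called higher and 1.05% lower. At 6 h 1 rose and 1 fell, where 0.431% of all genes were called higher and 0.818% lower. The list median was 0.043 at 24 h and 0.035 at 6 h, beside -0.019 and 0.019 over all genes. The 5 that rose at 24 h were Cd72 (1.11 ± 0.09), the oxidised lipoprotein receptor gene Olr1 (1.02 ± 0.10), Thbd, for thrombomodulin (0.76 ± 0.13), Fcer2a, for the low-affinity IgE receptor (0.64 ± 0.15), and Cd93 (0.61 ± 0.11). Olr1, which lies beside Clec7a on chromosome 6, stood at 12.18 and 12.08 in HRG samples, against 10.71 and 10.53 in basal samples at 6 h, a rise of 1.51 ± 0.10 (adjusted p = 0.000102). Ly75, for the endocytic receptor DEC-205, fell by 0.56 at 6 h (SE 0.09, adjusted p = 0.0166). The call of Ly75 was lost without Basal_6h replicate 1 (0.0763), HRG_6h replicate 1 (0.0507) or HRG_6h replicate 2 (0.224), and also with only the 4 arrays compared (0.0508). At 24 h the call of Fcer2a was lost without Basal_24h replicate 2 (0.316), HRG_24h replicate 1 (0.347) or HRG_24h replicate 2 (0.0913), and also with quantile normalization (0.0623). That of Cd93 was lost without Basal_24h replicate 2 (0.0647) or HRG_24h replicate 1 (0.115) and that of Thbd without HRG_24h replicate 1 (0.11). The close relatives of Clec4a2, Clec4a1 and Clec4a3, differed by 0.14 ± 0.10 and 0.19 ± 0.09 at 24 h and did not pass.

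Of 21 genes that Dectin-1 and Mincle ligands are known to induce, 0 rose and 4 fell with HRG at 6 h, where 0.818% of all genes were called lower, with a median of -0.21 beside 0.02 over all genes. Those that fell encode cytokines, Il12b (-1.20 ± 0.15), Il6 (-0.94 ± 0.13), Csf2 (-0.94 ± 0.19) and Il23a (-0.79 ± 0.13). The call of Il6 was lost without HRG_6h replicate 2 (0.0983), that of Il23a without Basal_6h replicate 1 (0.0786), HRG_6h replicate 1 (0.105) or HRG_6h replicate 2 (0.085) and that of Csf2 without Basal_6h replicate 1 (0.214), HRG_6h replicate 1 (0.0752), HRG_6h replicate 2 (0.362), HRG_24h replicate 1 (0.0767) or HRG_24h replicate 2 (0.0767), and for Csf2 also with quantile normalization (0.0662). With HRG at 6 h 1 marker fell in each of the B cell, T and NK cell and dendritic cell lists. These were Cd79b (-0.59 ± 0.12), Cd3g (-1.11 ± 0.21) and Ccr7 (-0.54 ± 0.11). The lists hold 5, 5 and 6 markers, and their medians were -0.365, -0.279 and -0.031. Above 0 and not past were Ighm (0.05) of the B cell list and Ncr1 (0.16) and Klrb1c (0.10) of the T and NK cell list. In the dendritic cell list these were Xcr1 (0.16) and Cd209a (0.25). The mean level of the T and NK cell list was 6.08 to 6.19 in HRG samples and 6.39 to 6.59 in basal samples, and that of the dendritic cell list 7.33 in both HRG samples and 7.38 to 7.44 in basal samples. The part of these cells in the lower cytokine levels was not tested. At 24 h 1 rose and 0 fell, with a median of -0.07, where 2.43% of all genes were called higher and 1.05% lower. The gene that rose was Il1rn, for the interleukin-1 receptor antagonist (0.49 ± 0.10, adjusted p = 0.0169). This call was lost without Basal_24h replicate 1, Basal_24h replicate 2, HRG_24h replicate 1 or HRG_24h replicate 2, with the difference between 0.48 and 0.50. With time Il1rn fell by 0.77 in basal samples (SE 0.10), while HRG samples differed by -0.34 ± 0.10, which did not pass. Its HRG 24 h arrays (12.26 and 12.23) stood below all 6 h arrays (12.43 to 12.65).

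Of 21 measured genes of the IL-4 receptor, STAT6 and transcription factors of macrophages, 2 rose and 0 fell with HRG at 24 h. In that comparison 2.43% of all genes were called higher and 1.05% lower. At 6 h 1 rose and 1 fell, where 0.431% of all genes were called higher and 0.818% lower. The list median was 0.152 at 24 h and 0.015 at 6 h, beside -0.019 and 0.019 over all genes. Maf, a factor of the macrophage lineage, stood at 11.16 and 10.82 in HRG samples, against 9.74 and 9.91 in basal samples at 24 h (1.17 ± 0.12, adjusted p = 0.000249). With time Maf fell by 0.77 in basal samples (SE 0.12). Nr1h3, for the sterol receptor LXRα, rose with HRG by 0.52 ± 0.11 at 24 h. This call was lost without Basal_24h replicate 1, Basal_24h replicate 2, HRG_24h replicate 1 or HRG_24h replicate 2, with the difference between 0.45 and 0.59. With time Nr1h3 fell by 1.04 in basal samples (SE 0.11) and by 0.68 in HRG samples (SE 0.11). Its HRG 24 h arrays (9.22 and 9.07) stood below all 6 h arrays (9.63 to 9.94). At 6 h Cebpa rose by 0.71 ± 0.10, a call lost without HRG_6h replicate 1 (0.0847) or HRG_6h replicate 2 (0.0565). Klf4 fell by 0.57 at 6 h (SE 0.12), a call lost without Basal_6h replicate 1 (0.0967), Basal_6h replicate 2 (0.125), HRG_6h replicate 1 (0.0507), HRG_6h replicate 2 (0.419), HRG_24h replicate 1 (0.0785) or HRG_24h replicate 2 (0.0785), and also with the replicate number as a block (0.0503) and with only the 4 arrays compared (0.083). Il4ra, for the receptor chain through which IL-4 induces Mrc1, differed by 0.10 ± 0.09 at 24 h, Stat6 by 0.02 ± 0.09 and Spi1, for PU.1, by 0.24 ± 0.10, and none of these passed.

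**Figure D4:**
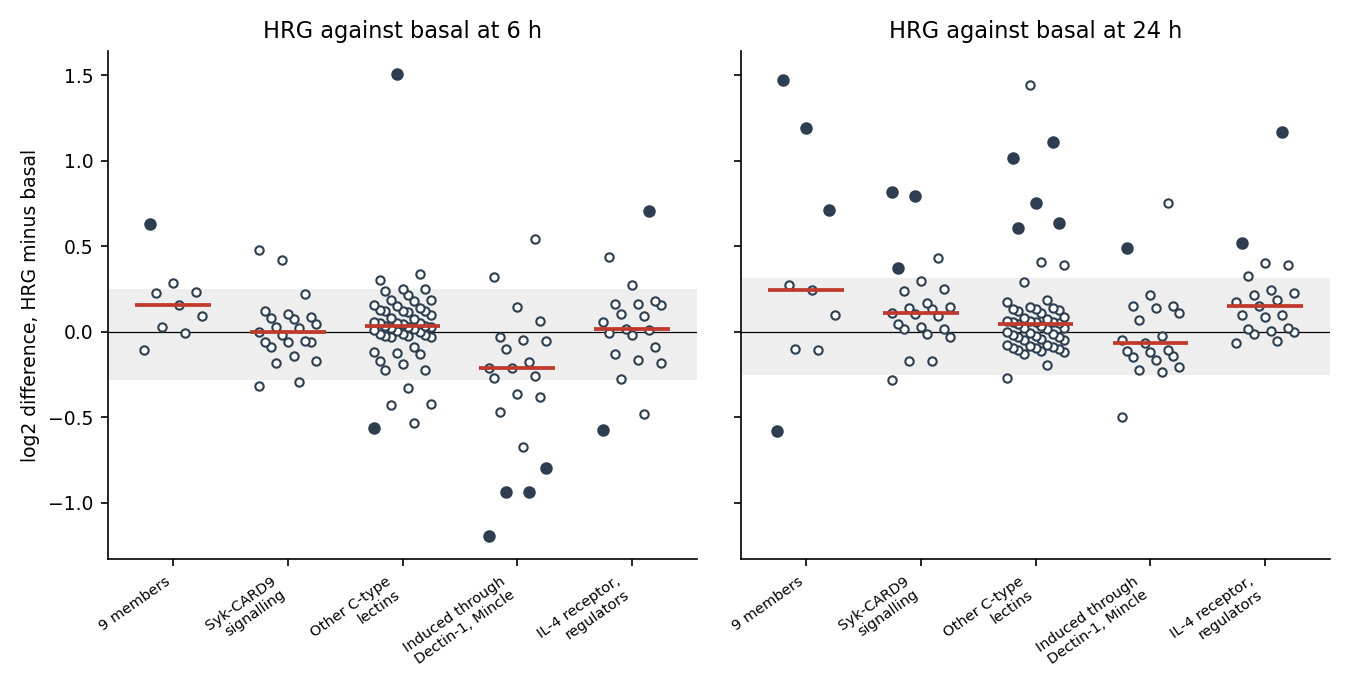
Log2 difference of HRG minus basal at 6 h (left) and 24 h (right) for the 9 members and the genes of 4 lists. Each point is a gene, filled where past an adjusted p of 0.05, red lines are medians, and the grey band runs from the 5th to the 95th percentile of all 19938 genes. The medians of the members are 0.16 at 6 h and 0.25 at 24 h, and the genes induced through Dectin-1 and Mincle have a median of -0.21 at 6 h.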

How the data were processed

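Expression was measured in 8 samples, 2 in each of 4 groups. The authors deposited log2 values, 1 per row and array, and the submitters' processing notes name Affymetrix Expression Console, RMA and limma. Versions and a genome build were not given in the sources used here. Array medians lay between 7.18 and 7.29. Of 28853 rows, 21789 had a single gene symbol, and rows with several (1621) or none (5443) were left out. Where a gene had more than 1 row (999 genes), its brightest row by mean was taken.

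Group means were fitted over the 8 arrays in R 4.3.3 with limma 3.58.1 (lmFit, contrasts.fit, eBayes), which left 4 residual and 7.81 prior degrees of freedom. Each of 5 comparisons was tested two-sided, with Benjamini-Hochberg adjustment across its 19938 genes. On simulated data for HRG against basal at 24 h over 19938 genes, 69.2% of the 1.5-fold changes and 99.2% of the 2-fold changes were found. Of the calls, 5.41% were of unchanged genes. Each of 5 sets had 200 changed genes and independent noise with the spread that the fit estimated. Shifts shared by the genes of an array were not simulated, so these shares may not hold for the real arrays. The members and lists were chosen with earlier results of these data known. All members are named, and from each list the genes that passed for HRG at 6 h or 24 h. For called members, the 3 closest genes by Pearson r are named, predicted genes left out. List genes with no row of their own symbol alone, such as Lyn and Jak3, were not analysed here. Alternatives were a block for the replicate number, trend and robust settings in eBayes, quantile normalization, median centring, removal of the dimmest 30% of genes (all 9 members stayed), the mean of a gene's rows, a fit to the 4 arrays in question, and each array left out in turn. The closing section gives their effect.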

Additional observations from a re-analysis of the deposited data

Results flagged for a closer look

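The HRG effect was larger at 24 h than at 6 h by 1.19 for Mrc1 (SE 0.17, adjusted p = 0.00648 in limma) and by 1.16 for Clec12a (SE 0.17, adjusted p = 0.00687). Each is listed here because the difference between the effects at the times passed its own test. At 24 h the mean level of Mrc1 was 8.33 with HRG, against 6.86 in basal samples, and at 6 h it was 6.93 with HRG, against 6.64 in basal samples. That of Clec12a was 11.06 with HRG, against 9.87 in basal samples at 24 h, and 10.83 with HRG, against 10.80 in basal samples at 6 h. Over the 16 alternatives run, the adjusted p ranged from 0.00205 to 0.0474 for Mrc1 and from 0.000441 to 0.0433 for Clec12a.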

How the results depend on the processing

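Over the members' differences, 717 of 756 comparisons with an alternative kept direction and call, 12 lost the call, 7 gained it and 20 turned direction, the last where the reported difference was not called. Many alternatives, such as leaving out an array of another group, cannot change a difference, and most differences were not called. The share kept is therefore no measure of how stable the calls were. The HRG calls of Clec5a and Clec4n at 24 h and of Clec7a at 6 h were lost without some single arrays. At 24 h Mrc1 and Clec12a kept their calls under all alternatives, at 1.35 to 1.60 and 1.03 to 1.35. Of 19 calls of list genes, 7 were kept under all alternatives. The lower quartile as a covariate, chosen after seeing the data, turned Clec4d at 6 h to 0.0103 and the difference of the effects to -0.0617 for Clec4e and -0.0551 for Clec4a2, and quantile normalization turned that of Clec4a2 to -0.0142. The covariate gave 518 genes past the threshold for HRG at 6 h (reported 249), 1099 at 24 h (694), 519 for the difference of the effects (294) and 2518 for time in HRG samples (1452). With trend and robust the counts were 492 at 6 h and 547 for the difference of the effects, and with only the 4 arrays compared 155 at 6 h. The cause of these shifts was not tested. Without single arrays, genes past the threshold ranged 21 to 287 at 6 h, 182 to 781 at 24 h, 56 to 404 for the difference of the effects, 1124 to 1817 for time in basal samples and 529 to 1680 for time in HRG samples, and members 0 to 1, 2 to 4, 2 to 3, 4 to 5 and 4 to 5. Differences that turned ranged at 6 h -0.0023 to 0.1913 for Clec10a, -0.0299 to 0.3447 for Clec4n, -0.1031 to 0.0905 for Clec4d and -0.051 to 0.1078 for Clec12a, at 24 h -0.0195 to 0.2209 for Clec10a, and between the effects -0.114 to 0.1264 for Clec10a, -0.0837 to 0.0961 for Clec4e and -0.0615 to 0.153 for Clec4a2. With the replicate number as a block, 1, 4, 2, 4 and 5 members passed in the 5 comparisons, as reported, and 242, 725, 362, 1860 and 1452 genes. Deviations of samples with the same number correlated at 0.244 to 0.411 in the 3 pairs of groups without basal 24 h and at -0.331 to -0.201 in the 3 pairs with it. The lower quartile was lower in replicate 1 than in replicate 2 in the 3 other groups and higher in basal 24 h. The labels give the numbers no meaning, and the rule of a correlation over 0.1 in every pair was not met. With the numbers of basal 24 h samples crossed, an alternative added after seeing the data, 510, 1083, 604, 2744 and 2337 genes passed. The number of arrays limits the precision, and signal over background was not analysed here.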

Other observations

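Cd209a, a gene of the DC-SIGN family, stood at 9.18 in HRG_24h replicate 1 and at 6.98 in HRG_24h replicate 2, against 6.56 and 6.72 in basal 24 h samples. Its difference of 1.44 ± 0.47 did not pass (adjusted p = 0.156). Mrc1 stood at 8.46 and 8.21 in the same HRG arrays. Clec9a, a receptor for dead cells known from dendritic cells, stood at 7.47 and 7.08 in HRG samples and 7.36 and 7.39 in basal samples at 24 h, and between 5.91 and 6.14 on the 6 h arrays. It rose with time by 1.27 ± 0.13 in HRG samples (adjusted p = 0.000156) and by 1.35 ± 0.13 in basal samples (adjusted p = 8.13e-05). Both genes were chosen for mention after their values were seen.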
